A study of Homo sapiens with 4 samples.

Results

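The replication-dependent histone genes of chromosome 6 were taken as the protein-coding genes between 25.9 and 28 Mb (GRCh38) whose current symbol starts with H1-, H2AC, H2BC, H3C or H4C. The rule, which used no measured value, gave 53 of the 20037 protein-coding genes of the RefSeq table. They comprised 6 genes of the linker histone H1, 11 of H2A, 14 of H2B, 10 of H3 and 12 of H4. A gap of more than 200 kb between neighbours divided them into 3 subclusters of 32, 5 and 16 genes, here numbered by position. These are short genes with a median record of 487 bp, but H2BC4, H2BC5, H2BC12, H3C4 and H3C6 have records longer than 1 kb, and H3C4 spans the whole of H2AC7.

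Nucleosomes are built of a core of H2A, H2B, H3 and H4, and H1 binds the linker DNA where it enters and leaves the core. Most genes of this cluster are switched on in S phase, when new DNA must be packaged, and are transcribed in a nuclear compartment, the histone locus body, that forms around the activator NPAT. Their mRNAs carry no poly(A) tail and end in a stem-loop bound by SLBP, and many H2A and H2B genes sit head to head and share 1 promoter region. H1-6 is an exception in the set, since it encodes the H1 of the testis.

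The mark measured was acetylation of lysine 27 of histone H3 (H3K27ac), found at active promoters and enhancers, by ChIP-seq in MOLM13, a human acute myeloid leukaemia (AML) line that carries an MLL-AF9 fusion. One culture received the BET bromodomain inhibitor OTX015 at 500 nM, the other received OTX015 at 500 nM with the Menin inhibitor SNDX-50469 at 500 nM (the combination), both for 16 hours. The comparison therefore asks what Menin inhibition added to BET inhibition, since OTX015 was present in both arms, and each arm was a single ChIP library, so no value has a replicate error and no test between arms was made. RNA was not analysed here.

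The OTX015 list held 55852 peaks over 26 Mb and the combination list 86207 peaks over 44.4 Mb. Read numbers were not in the lists, but the background solved from their lowest peaks was 0.764 fragments per base with OTX015 and 1.47 with the combination, a ratio of 1.92. The weakest listed peaks had a pileup 6.54 times this background with OTX015 and 4.76 times with the combination, so the combination list reaches down to weaker peaks relative to background. All 8 myeloid marker genes examined (SPI1, CEBPA, MPO, CD33, FLT3, LYZ, CSF1R and MYB) had a peak in both lists, as did 29.6% of all protein-coding genes. Their length under peaks ran from 145 bp (LYZ) to 8135 bp (SPI1) with OTX015. With the combination it ran from 293 bp (LYZ) to 12933 bp (MYB).

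Promoter sequences of 48 of the 53 genes were in the RefSeq promoter table (GRCh38.p14). The first 3 shown are the whole gaps between the starts of head-to-head H2A and H2B genes, chosen because they differ in their peaks. The H2BC11/H2AC11 gap (chr6:27132796-27133042, + strand) lay wholly under a combination peak, the H2BC8/H2AC8 gap (chr6:26216689-26216920, + strand) had no peak within 1 kb of either gene, and the H2AC17/H2BC17 gap (chr6:27893186-27893424, + strand) was free of peaks but had strong ones beside it in both lists. The others are the 250 bases before the start of H1-2 (chr6:26056471-26056720, − strand), H3C1 (chr6:26020201-26020450, + strand), H3C3 (chr6:26045134-26045383, + strand), H4C8 (chr6:26285535-26285784, − strand) and H4C7 (chr6:26246997-26247246, − strand). H1-2 and H4C8 stand for genes with a strong OTX015 peak, H3C1 for a peak of like size in both lists, H3C3 for no peak and H4C7 for a peak in the combination list alone. Capitals mark 4 motifs on either strand. They are the TATA box, TATAAA, and the CCAAT box, which is named by its letters. The octamer, bound by OCT factors, reads ATTTGCAT. The H1 box of linker histone promoters reads AAACACA.
H2BC11/H2AC11 gap: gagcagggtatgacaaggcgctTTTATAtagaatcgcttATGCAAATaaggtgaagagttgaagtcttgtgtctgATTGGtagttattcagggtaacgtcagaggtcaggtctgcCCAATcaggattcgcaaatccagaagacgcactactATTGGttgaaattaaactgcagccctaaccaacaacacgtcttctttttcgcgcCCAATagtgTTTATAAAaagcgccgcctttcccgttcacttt
H2BC8/H2AC8 gap: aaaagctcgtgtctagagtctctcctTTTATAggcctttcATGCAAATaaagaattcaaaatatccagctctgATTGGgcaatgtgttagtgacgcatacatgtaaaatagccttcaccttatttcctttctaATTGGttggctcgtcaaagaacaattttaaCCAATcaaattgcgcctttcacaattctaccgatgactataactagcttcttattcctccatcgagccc
H2AC17/H2BC17 gap: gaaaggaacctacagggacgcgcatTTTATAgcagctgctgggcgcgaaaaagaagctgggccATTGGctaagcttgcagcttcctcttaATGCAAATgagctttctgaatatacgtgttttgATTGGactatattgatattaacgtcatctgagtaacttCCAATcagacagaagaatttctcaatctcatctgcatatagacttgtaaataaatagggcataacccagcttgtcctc
H1-2: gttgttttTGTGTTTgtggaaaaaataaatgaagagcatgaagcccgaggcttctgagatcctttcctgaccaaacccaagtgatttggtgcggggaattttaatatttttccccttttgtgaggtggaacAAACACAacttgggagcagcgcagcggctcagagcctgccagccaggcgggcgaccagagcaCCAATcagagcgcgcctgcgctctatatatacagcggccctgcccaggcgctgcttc
H3C1: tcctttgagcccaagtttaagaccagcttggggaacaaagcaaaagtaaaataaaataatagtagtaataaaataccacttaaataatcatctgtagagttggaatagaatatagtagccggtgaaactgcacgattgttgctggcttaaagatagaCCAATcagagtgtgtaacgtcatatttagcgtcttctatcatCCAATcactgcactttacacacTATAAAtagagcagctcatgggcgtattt
H3C3: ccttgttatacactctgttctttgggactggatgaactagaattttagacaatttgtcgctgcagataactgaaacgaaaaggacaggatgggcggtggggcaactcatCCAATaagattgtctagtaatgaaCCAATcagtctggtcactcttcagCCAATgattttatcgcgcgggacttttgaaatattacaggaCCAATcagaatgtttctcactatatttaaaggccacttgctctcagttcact
H4C8: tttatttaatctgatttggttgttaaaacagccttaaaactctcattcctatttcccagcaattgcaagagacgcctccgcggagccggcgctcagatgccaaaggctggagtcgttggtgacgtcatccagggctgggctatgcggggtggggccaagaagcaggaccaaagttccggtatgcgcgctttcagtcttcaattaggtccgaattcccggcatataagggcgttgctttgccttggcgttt
H4C7: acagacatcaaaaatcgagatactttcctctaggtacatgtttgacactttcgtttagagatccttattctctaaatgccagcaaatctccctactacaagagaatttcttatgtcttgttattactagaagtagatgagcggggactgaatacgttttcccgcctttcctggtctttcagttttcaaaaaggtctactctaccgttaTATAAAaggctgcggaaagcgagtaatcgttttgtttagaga

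CCAAT, the octamer and the H1 box differed between the histone classes, and TATAAA was read in every class. Over the 250 bases before the start, both strands, TATAAA was present in 31 of 48 histone genes (64.6%) against 9.0% of all 22199 promoters of the table, with 3 of 6 H1 promoters lowest and 10 of 14 H2B promoters highest, and CCAAT in 41 (85.4%) against 32.7%. TATAAA and its reverse TTTATA can overlap, as in the run TTTATAAA beside H2AC11, and such a run counted once per promoter. All promoters of the H1, H2A, H2B and H3 genes that could be read held CCAAT, but only 3 of 10 H4 promoters did. The octamer was read in 8 of 10 H2A and 11 of 14 H2B promoters, in 1 H3 promoter (H3C4, which shares its start with H2AC7) and in no H1 or H4 promoter, against 1.59% of all promoters. The H1 box was present in all 6 H1 promoters and in no other member, against 3.79% of all promoters. Partners of a head-to-head pair read largely the same bases, so they are not separate observations. Among the sequences above, that of H4C8 held none of the 4 motifs, although its OTX015 peak ranked second among the histone genes.

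Peaks within 1 kb of a histone gene were frequent in both lists. With OTX015, 37 of the 53 genes (69.8%) had a peak in the gene body or within 1 kb of it, against 40.9% of all protein-coding genes. With the combination, 47 (88.7%) had one, against 43.3%. Both lists held a peak at 35 genes (background 29.6%), 12 had one with the combination only (background 13.7%) and 2 with OTX015 only (background 11.3%). H2BC3, H3C3, H2BC8 and H2AC8 had no peak in either list. All 12 genes with a combination peak alone lie in subcluster 1 (H1-1, H2BC6, H2BC9, H2BC10, H3C6, H3C7, H3C8, H4C2, H4C3, H4C4, H4C6 and H4C7), as do the 4 without a peak. The 2 genes with an OTX015 peak alone were H1-6 and H4C11.

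Other genes of the chromosome often had peaks as well. Chromosome 6 was densely covered in both lists, and of its 996 other protein-coding genes 684 (68.7%) had a peak by the same rule with OTX015 and 828 (83.1%) with the combination. Of the 996, 643 (64.6%) had a peak in both lists, 185 with the combination only and 41 with OTX015 only. More genes with a combination peak alone than with an OTX015 peak alone is thus not particular to the histone genes. These 996 genes are far longer, with a median record of 24210.5 bp. In a window of equal length for every gene, 1 kb either side of the 5′ end, 35 histone genes (66.0%) had an OTX015 peak and 46 (86.8%) a combination peak. The same windows gave 23.6% and 33.5% of other genes of chromosome 6, and 14.9% and 15.4% of all protein-coding genes with a known strand. Of the 480 other genes with a record of at most 1 kb, 24 (5.0%) and 34 (7.08%) had a peak by the first rule, against 33 and 42 of the 48 histone genes as short as that. Of the 14 such short genes on chromosome 6 outside the set, 3 (21.4%) and 5 (35.7%) had one.

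The counts rest on weak peaks, as do both lists as a whole. Keeping only peaks with a −log10 q of at least 2 left 14 histone genes with an OTX015 peak, 15 with a combination peak and 8 with both. It kept 10 of 42 OTX015 peaks and 10 of 51 combination peaks at the histone genes. In the whole lists it kept 4211 of 55852 and 11097 of 86207. The share of all genes at this limit was not computed. With equal numbers of peaks in both lists, 37 histone genes had an OTX015 peak, 37 a combination peak and 30 both. The higher count with the combination was thus not kept at equal peak numbers. When the combination list was held to the enrichment that OTX015 peaks had to reach, 6.54 times background, no histone gene kept a combination peak. That limit kept 1160 of the 86207 combination peaks in all. The highest value of a combination peak at any histone gene, at H4C5, was 6.49 times background, worked out from the 1 fold listed for that peak.

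**Figure D1:**
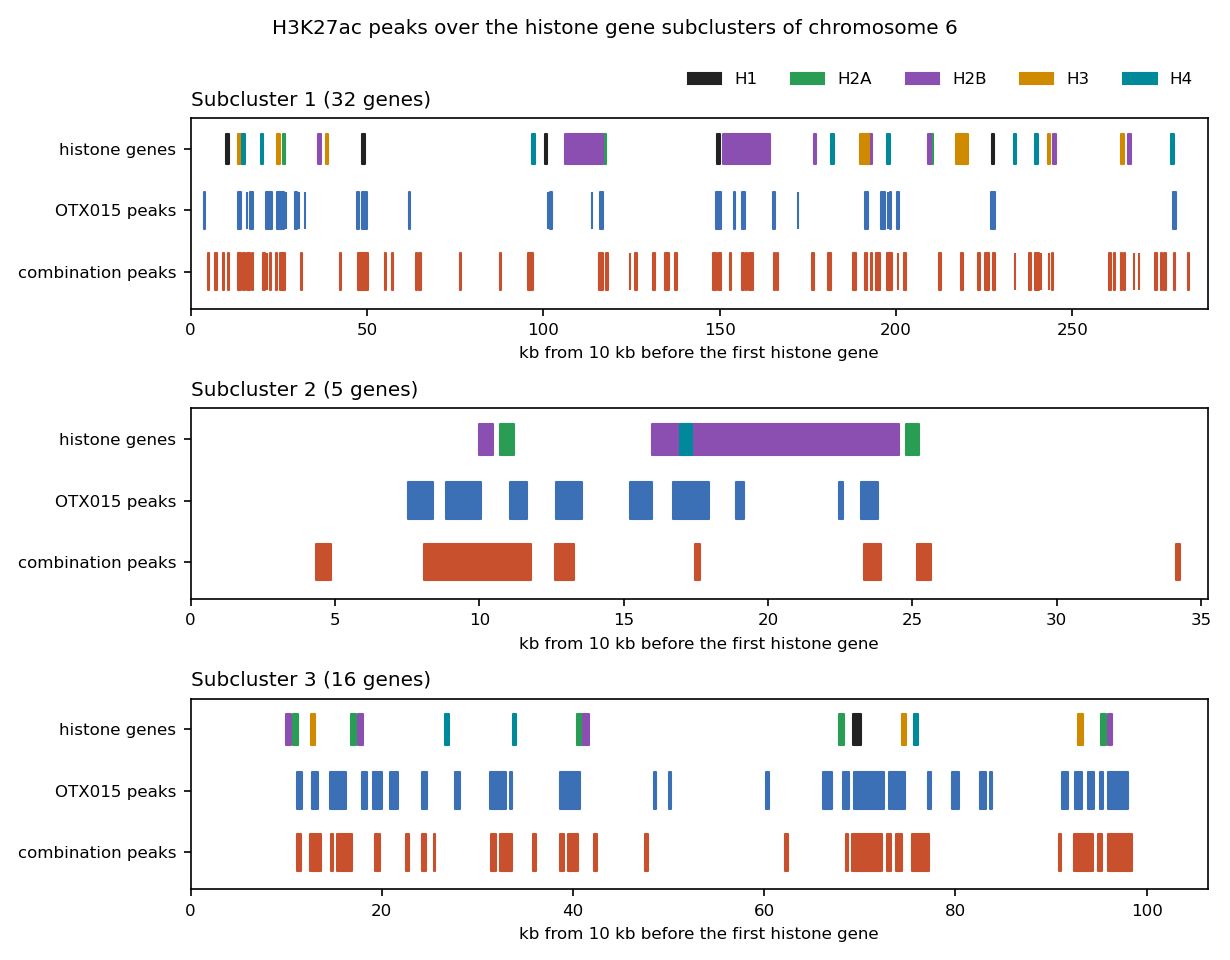
Positions of the 53 histone genes (top row of each panel, coloured by class) and of the peaks of both lists (lower rows) along the 3 subclusters, in kb from 10 kb before the first gene. Subcluster 1 had 29 OTX015 and 70 combination peaks, subcluster 2 had 9 and 7, and subcluster 3 had 27 and 25.

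Of the 6 linker histone genes, 4 had a peak over the gene itself in both lists. H1-2, a main somatic H1, had 1.49 kb under OTX015 peaks and 2.72 kb under combination peaks, counted in the gene with 1 kb either side, and the peak lay over its whole body in both lists. H1-5 had 2.31 and 2.12 kb, and the OTX015 peak over it was the widest at any histone gene in that list, at 3173 bp. H1-4 had 1.5 and 1.48 kb and H1-3 had 1.22 and 0.715 kb. H1-1 had no OTX015 peak and 0.566 kb under combination peaks. H1-6, the testis gene, had 0.285 kb with OTX015, in peaks upstream of its body, and no combination peak. At the 4 H1 genes with a peak in both lists the −log10 q was higher with OTX015, and at H1-2 it was 2.83 against 1.85.

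Of the 11 H2A genes, 10 had a peak in each list, and they were the same 10 in both. H2AC8 was the exception. Cover of these 10 ranged from 0.038 kb (H2AC12) to 1.58 kb (H2AC4) with OTX015 and from 0.331 kb (H2AC16) to 2.08 kb (H2AC11) with the combination. H2AC11 had 0.920 kb with OTX015 and 2.08 kb in the combination list, H2AC12 had 0.038 and 0.619 kb, and H2AC16 had 0.810 and 0.331 kb. H2AC14 had little difference in length, 0.795 and 1.05 kb, but its strongest OTX015 peak had a −log10 q of 3 and its combination peak 1.54. Over the class, 4 genes had more and 6 less cover with the combination.

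Of the 14 H2B genes, 9 had an OTX015 peak and 12 a combination peak. H2BC6, H2BC9 and H2BC10 had one with the combination only, of 0.477, 0.232 and 0.006 kb, and the last is a peak that entered the window of H2BC10 by 6 bp. The largest cover belonged to genes with long records or to head-to-head pairs. H2BC12, whose record is 8566 bp, had 3.06 kb in 5 OTX015 peaks and 1.16 kb in 3 combination peaks. H2BC5, with a record of 13229 bp, had 1.61 and 2.67 kb. Cover of H2BC11 was 1.48 and 2.48 kb, that of H2BC17 was 1.72 and 1.76 kb, and that of H2BC4 was 0.787 and 0.868 kb. H2BC7, H2BC13, H2BC14 and H2BC15 lay between 0.279 and 0.669 kb with OTX015 and between 0.277 and 0.709 kb with the combination.

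Among the 10 H3 genes, 6 had an OTX015 peak and 9 a combination peak. Cover of H3C2 was 1.55 kb with OTX015 and 0.922 kb in the combination list, and its whole body was under the OTX015 peak while none of it was under the other. H3C12 went the other way, with 1.21 and 1.96 kb, and H3C10 likewise with 0.607 and 1.08 kb. H3C1 differed little, with 0.756 and 0.625 kb and −log10 q of 1.90 and 2.05. H3C11 had 1.34 and 1.01 kb. H3C4 had 0.912 and 0.664 kb, the same values as H2AC7, which lies inside its record. H3C6, H3C7 and H3C8 had 0.459, 0.349 and 0.625 kb with the combination only.

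With all listed peaks, the H4 genes differed most in count, with a peak at 7 of 12 with OTX015 and 11 of 12 with the combination. Counts by class at equal peak numbers were not computed. H4C2, H4C3, H4C4, H4C6 and H4C7 had a combination peak only, of 0.433, 0.606, 0.839, 0.112 and 0.978 kb, and that of H4C7 lay over the whole gene with a −log10 q of 2.34. H4C5 carried the strongest combination peak at any histone gene, with a −log10 q of 2.83 against 2.28 with OTX015 and a cover of 1.46 against 0.861 kb. H4C8 had 0.778 kb at a −log10 q of 3.19 with OTX015 and 0.347 kb at 1.62 with the combination, both upstream of its body. H4C13 had 0.039 and 1.57 kb, and H4C9, which lies within the record of H2BC12, had 1.26 and 0.192 kb. H4C1 had 0.800 and 1.09 kb and H4C12 had 0.420 and 0.935 kb. H4C11 had 0.298 kb with OTX015 and no combination peak.

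**Figure D2:**
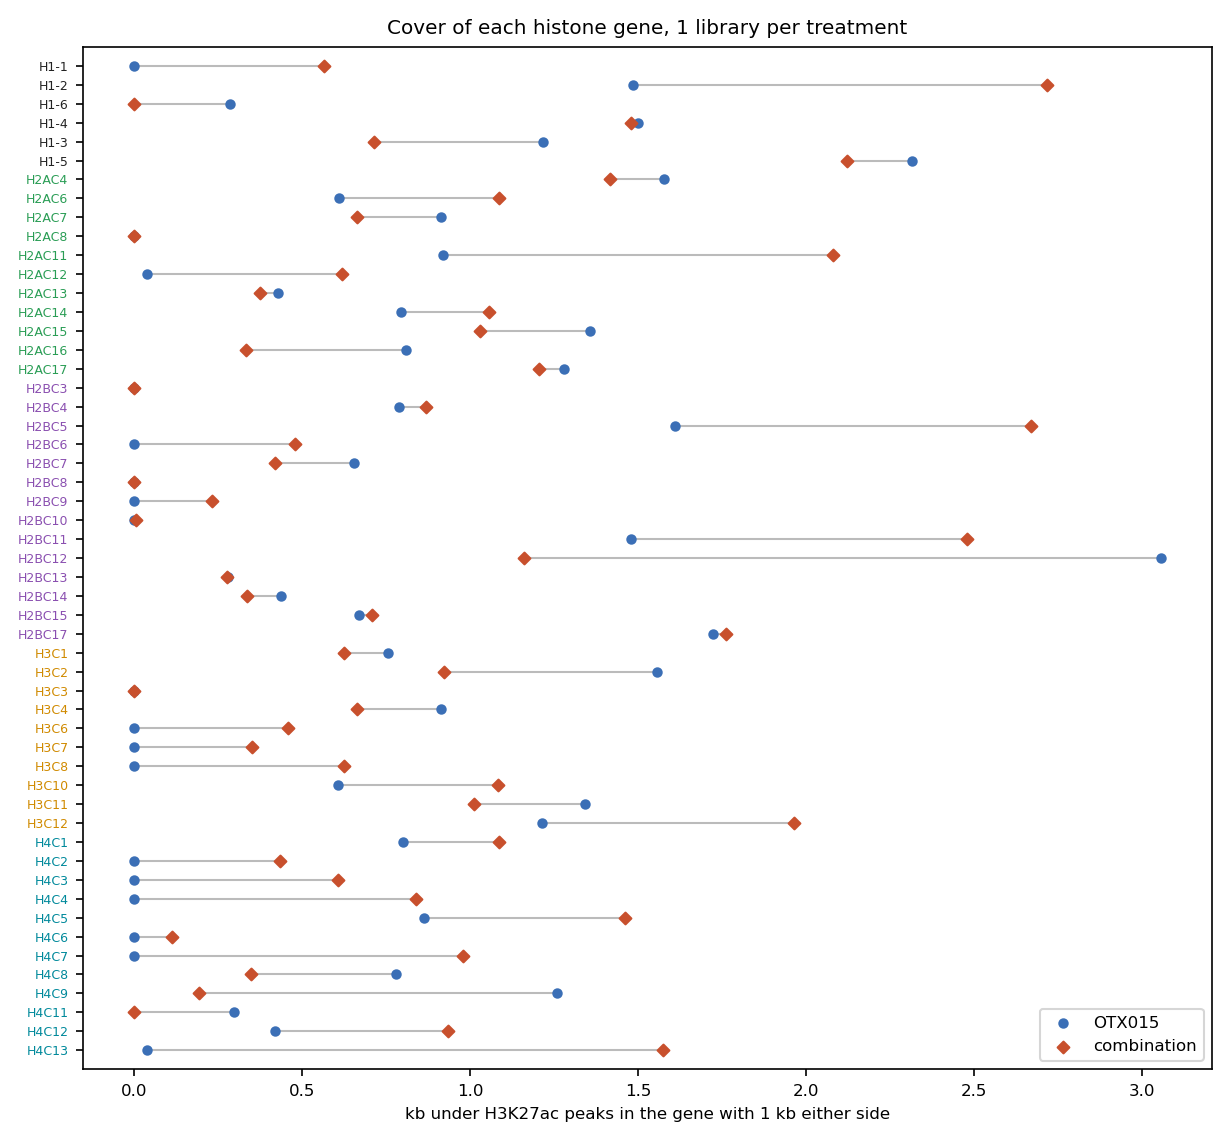
Length under H3K27ac peaks (kb, horizontal axis) in each of the 53 histone genes with 1 kb either side, for OTX015 (circles) and the combination (diamonds), with a line joining both values of a gene. Values ran from 0 to 3.06 kb with OTX015 (H2BC12) and from 0 to 2.72 kb with the combination (H1-2), and each point is 1 library.

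Summed over all genes the direction was mixed. Of the 49 genes with cover, 28 had more with the combination and 21 less, against 58.3% with more among the 10942 protein-coding genes with cover. With equal numbers of peaks in both lists, 22 of the 49 had more and 22 less. Among the 869 other genes of chromosome 6 with cover, 712 had more. The median difference was 0.081 kb over the histone genes, 0.126 kb over all genes and 0.795 kb over the other genes of chromosome 6, whose windows are longer. By class, more cover and less cover were counted at 2 and 4 H1 genes, 4 and 6 H2A, 8 and 4 H2B, 5 and 4 H3 and 9 and 3 H4 genes. At least 1 kb more was found at 5 of the 53 genes, H1-2, H2BC5, H2BC11, H2AC11 and H4C13 (background 8.81% of all genes). At least 1 kb less was found at 2, H2BC12 and H4C9 (background 3.41%). Both counts are near these background shares. The backgrounds also come from longer windows, with a median record of 24115 bp over all genes. H2BC11 and H2AC11 share 1 peak, and H4C9 lies within H2BC12, so these 7 genes stand for fewer separate sites. The difference at H2BC5 turned from 1.06 to −0.108 kb, and that at H2BC12 from −1.90 to 0.462 kb, when only 1 kb either side of the 5′ end was counted. With a −log10 q of at least 2 the difference at H1-2 turned from 1.23 to −1.49 kb and that at H2BC5 to −0.413 kb, and with 5 kb flanks that at H4C13 turned from 1.53 to −0.100 kb. A common enrichment left no combination peak at any histone gene, so all 5 genes with at least 1 kb more had to turn sign. That turn therefore says nothing about these genes singly.

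The 9 head-to-head pairs of an H2A and an H2B gene have starts 193 to 247 bp apart. None of the 9 gaps was touched by an OTX015 peak and 1 by a combination peak, and 8 pairs had a peak within 1 kb in each list. Over all genes, a peak touched the 250 bp before the 5′ end at 4.48% with OTX015 and 6.21% with the combination, so few touched gaps among 9 is near that background. The touched gap was that of H2BC11/H2AC11, the first sequence printed above. With OTX015, a peak of 1211 bp (chr6:27131164-27132374) ended within H2BC11 and another of 588 bp (chr6:27133376-27133963) began within H2AC11, leaving the gap free. With the combination, 1 peak of 3716 bp (chr6:27130408-27134123) ran across both genes and the gap, and was the widest at any histone gene. For H2AC17/H2BC17, peaks lay on both sides of the gap in both lists, and those on the H2BC17 side had a −log10 q of 2.72 and 2.63.

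Within 1 kb of the 5′ end, fewer of the 53 genes were under a peak near the start than on either side of it. The 5′ base itself was under a peak at 6 genes with OTX015 (background 3.43% of all genes) and at 14 with the combination (background 4.86%). The 6 were H1-2, H1-3, H1-4, H1-5, H3C2 and H4C9. The highest number was 23 genes at 550 bp into the gene with OTX015 and 26 genes at 650 bp with the combination. At 1 kb upstream it was 18 and 21 genes. Since most members are shorter than 550 bp, that maximum lies mainly beyond their 3′ ends, and in a dense cluster it can belong to the next gene.

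**Figure D3:**
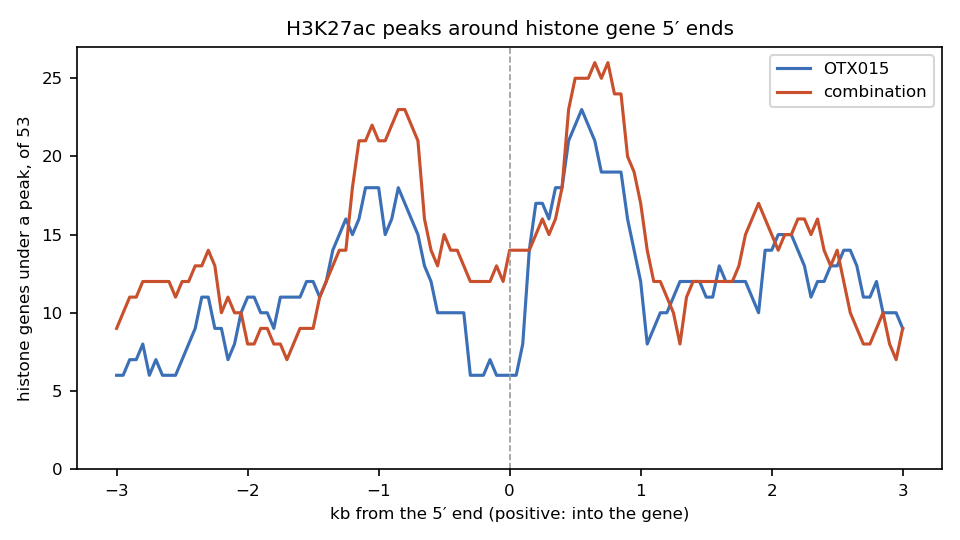
Number of the 53 histone genes under a peak (vertical axis) at each distance from the 5′ end (horizontal axis, kb, positive into the gene, every 50 bp within 3 kb) for OTX015 and the combination. At the start 6 and 14 genes were under a peak, and the lines reach 23 and 26 genes at 550 and 650 bp into the gene.

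Cover also differed between the subclusters. Subcluster 1 (chr6:26007032-26295534, with 10 kb beyond its outermost genes) had 19 kb under OTX015 peaks and 35.8 kb under combination peaks, or 6.57% and 12.4% of its length. Subcluster 2 (chr6:27122316-27157562) had 6.63 and 6.30 kb, or 18.8% and 17.9%. Subcluster 3 (chr6:27797479-27903891) had 23 and 20.3 kb, or 21.6% and 19.1%. Of the 32 genes of subcluster 1, 16 had an OTX015 peak and 27 a combination peak. All 5 genes of subcluster 2 had one in both lists, and in subcluster 3 all 16 had an OTX015 peak and 15 a combination peak.

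The chromosome around them had another ratio between the lists. Combination cover was 2.21 times OTX015 cover over chromosome 6 as a whole, which had 1.27% and 2.80% of its length under peaks. The ratio was 1.89 in subcluster 1, 0.949 in subcluster 2 and 0.885 in subcluster 3, and 1.29 over the 3 together. In the stretch between subclusters 1 and 2 it was 4.58 (0.766% and 3.51%) and between subclusters 2 and 3 it was 6.03 (0.451% and 2.72%). It was 2.30 in the 5 Mb before subcluster 1 and 2.18 in the 5 Mb after subcluster 3. Relative to the whole chromosome, subclusters 1, 2 and 3 were thus covered 5.19, 14.9 and 17 times as densely with OTX015 and 4.44, 6.39 and 6.83 times with the combination. The solved background was also 1.92 times as high in the combination library, and its part in these ratios was not tested. Other choices of peaks moved these values. With equal numbers of peaks in both lists, the difference in subcluster 1 went from 16.9 to 4.76 kb, and with a −log10 q of at least 2 it was 0.876 kb, while that of subcluster 2 turned from −0.337 to 3 kb. A common enrichment left no combination cover in any subcluster, so every difference had to be negative, and only that of subcluster 1 turned sign, to −19.0 kb. With 50 kb beyond the outermost genes the differences of subclusters 2 and 3 turned from −0.337 and −2.64 kb to 2.45 and 0.876 kb.

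**Figure D4:**
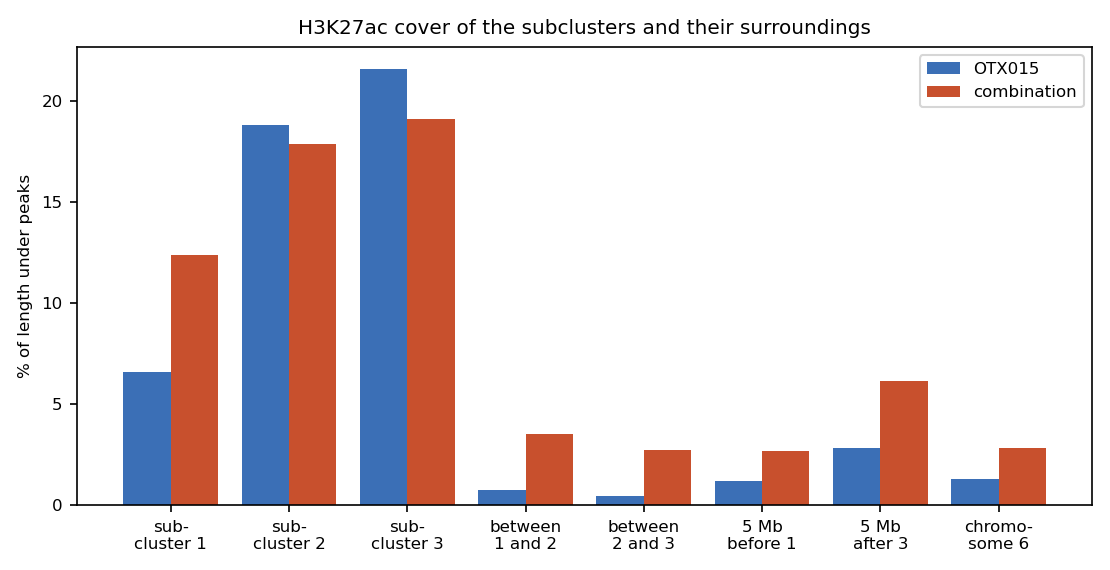
Share of length under H3K27ac peaks (%, vertical axis from 0) in the 3 histone gene subclusters, the stretches between them, the 5 Mb on either side and the whole of chromosome 6, for OTX015 and the combination, 1 library each. The subclusters reached 6.57 to 21.6% with OTX015 and 12.4 to 19.1% with the combination, against 1.27% and 2.80% over the chromosome.

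Within the subclusters, peaks covered the genes more densely than the DNA between them. The histone genes with 1 kb either side take up 32.4% of the 430.0 kb and held 57.1% of the cover with OTX015 and 57.9% with the combination. Of the 65 OTX015 peaks 42 lay at a histone gene, as did 51 of the 102 combination peaks, and 18 and 22 of these were shared by neighbouring histone genes. A peak of the subclusters met a peak of the other list in 39 of 65 cases (60%) for OTX015 and 38 of 102 (37.3%) for the combination, against 21.6% and 9.63% of the peaks of chromosome 6. The subclusters were more densely covered, at 11.3% and 14.5% against 1.27% and 2.80% of the chromosome. Their peaks were also wider, with medians of 486 to 774 bp with OTX015 and 414 to 512 bp with the combination, against 262 and 293 bp. The part of cover and width in the overlap was not tested.

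Peaks at the histone genes mostly had the higher −log10 q with OTX015. Fold enrichment, as the authors' peak caller gave it, ran from 3.40 to 5.49 with OTX015 and from 3.24 to 4.27 with the combination. The strongest OTX015 peak was the one at H2BC11 and H2AC11, with a fold of 5.49 and a −log10 q of 4.26, and the combination peak there had 3.99 and 2.36. Next came H4C8 (3.19), H2AC14 (3), the pair H2AC15/H2BC15 (2.96) and H1-2 (2.83). In the combination list H4C5 (2.83) was followed by H2AC17/H2BC17 (2.63) and H2AC15/H2BC15 (2.49). Of the 35 genes with a peak in both lists, the highest −log10 q was greater with OTX015 at 26 and with the combination at 9, although several of them share a peak. Over the 5924 protein-coding genes with a peak in both lists it was greater with OTX015 at 34.4% and with the combination at 65.1%. The windows are unlike, since the median record is 487 bp for the histone genes and 24115 bp for all protein-coding genes. A longer window can take its highest value from more peaks. All OTX015 peaks had a median −log10 q of 1.27 and all combination peaks one of 1.54. The −log10 q also moves with depth and with the number of peaks in a list. Each peak has 1 fold and 1 −log10 q whatever its width, which at H2BC11 and H2AC11 was 1211 bp with OTX015 and 3716 bp with the combination. The part of depth, peak number, peak width and window length was not tested.

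**Figure D5:**
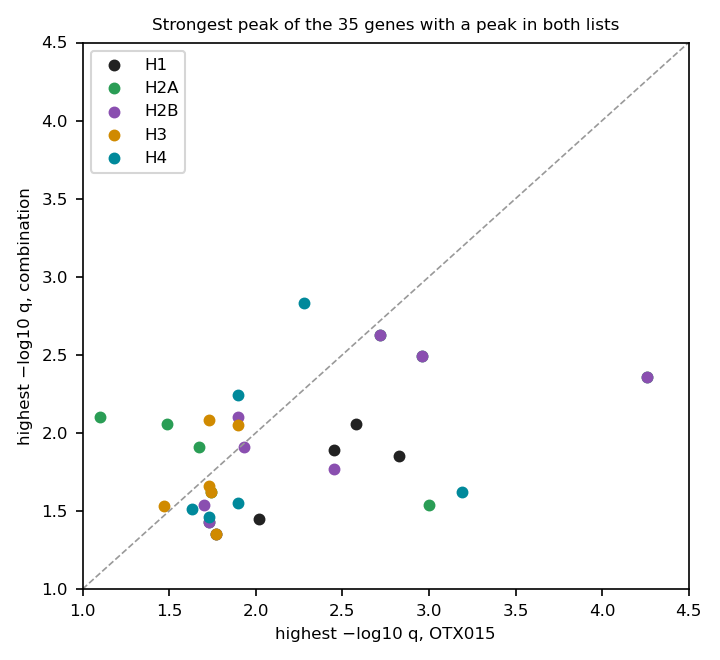
Highest −log10 q of a peak within 1 kb of each of the 35 histone genes with a peak in both lists, OTX015 on the horizontal and combination on the vertical axis, coloured by class, with the line of equal values dashed. Genes that share a peak fall on 1 point, and 26 of the genes lie below the line.

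Near-identical copies limit what can be said of single genes. Promoter stretches of at least 50 identical bases with a gene elsewhere were found for 6 of the 48 genes, in the pairs H2AC13/H2BC13 and H2AC14/H2BC14 and in H4C11 and H4C12, and the coding parts of a class are known to be much alike. The submitters' processing notes name Bowtie and the study's methods name TopHat2 for the ChIP reads. How reads with several equally good positions were treated is not given in the sources used here, so values of such genes are uncertain.

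Peaks were also counted at 17 histone genes elsewhere in the genome. None had an OTX015 peak and 4 had a combination peak, H4C15, H2AC19 and H2AC20 on chromosome 1 among them with 0.407, 0.164 and 0.154 kb. Of all genes outside the set with a record of at most 1 kb, 5.0% and 7.08% had one. Within 1 kb of the 5′ end, 0 and 3 of the 17 had a peak, against 14.9% and 15.4% of all genes with a known strand. Several of these 17 histone genes are also near-identical copies of others. Replication-independent variants had a peak at 6 of 14 genes with OTX015 and 4 with the combination, shares near or under those of all genes (40.9% and 43.3%). Of these MACROH2A1 had 10.1 and 3.73 kb, H3-3A, which encodes H3.3, 1.42 and 0.718 kb, and H2AZ1 0.445 kb and no combination peak.

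Genes whose products make or handle the histone mRNAs and proteins had peaks in both lists. Of 22 genes of histone gene transcription and mRNA processing, 12 had an OTX015 peak and 15 a combination peak, where 40.9% and 43.3% of all genes had one. NPAT had 0.249 and 0.292 kb and SLBP 0.877 and 0.963 kb. The largest differences were at ERI1, an exonuclease that trims the histone mRNA end, with 6.06 and 16.4 kb, ZNF473, a factor of the U7 particle, with 0.741 and 3.90 kb, and UPF1, a helicase of histone mRNA decay, with 1.70 and 3.19 kb. ERI1 lies on chromosome 8, and ZNF473 and UPF1 on chromosome 19. Of 21 histone chaperone genes, 17 and 14 had a peak, against the same 40.9% and 43.3% of all genes. TONSL (chromosome 8) had 8.57 and 10.9 kb and DAXX (chromosome 6) 0.672 and 2.73 kb. NAP1L4 (chromosome 11) had 1.11 kb and no combination peak. The 19 other protein-coding genes of the same interval had a peak at 8 with OTX015 (42.1%) and 15 with the combination (78.9%). Of all chromosome 6 genes outside the set, 68.7% and 83.1% had one. The butyrophilin genes BTN3A3 (0.415 and 3.48 kb), BTN2A1 (none and 2.16 kb) and BTN1A1 (none and 1.80 kb) differed most among them, and they lie in the stretch between subclusters 1 and 2.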

How the data were processed

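H3K27ac ChIP-seq of MOLM13 cells was analysed in 2 ChIP libraries, 1 per treatment. The 2 input libraries, and cells left untreated or given only SNDX-50469, were not analysed here. The antibody is labelled H3K27Ac and was followed where titles read H2K27Ac. Per the submitters' processing notes, bcl2fastq 2.17, Trimmomatic 0.33, Bowtie 1.1.2, MACS2 2.1.0 and deepTools were used, with GRCh38. The authors deposited 1 broad peak list per library, holding for each peak a score, a fold enrichment (ratio to background), and the p and q values as −log10. The score was not used further.

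Cover is the union of peaks in a window, an overlap of at least 1 bp counting as a peak. Windows were the gene with 1 kb either side, or 1 kb either side of the 5′ end. Gene positions came from RefSeq (GRCh38.p14). Strands came from the promoter table for 48 genes and, as strand alone, from GENCODE for 5. No coordinate was converted. The background of a list was solved from the fold and −log10 p shared by its lowest peaks, under a Poisson model with a pseudocount of 1. Enrichment is the fold of a peak turned back into a pileup and divided by this background. The lists give 1 fold per peak, so for a wide peak it need not be the height at its summit. Depth itself is unknown, so no counting intervals were computed.

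The genes and lists were chosen with earlier results of these data known. Every histone gene of the set with a peak could be named. Of the other lists, the 3 genes with the largest difference in cover were named, with NPAT and SLBP. No test was run, since each treatment had 1 library. Alternatives were other windows, peaks with a −log10 q of at least 2, equal peak numbers, a common enrichment, a larger overlap, merged peaks and other subcluster edges. Protein sequences were not analysed here. Scripts were tested on simulated data and used matplotlib 3.10.9, scipy 1.17.1, pandas 2.3.3 and numpy 2.4.6 under Python 3.11.15. The result of the markers of other lineages is not reported here.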

Additional observations from a re-analysis of the deposited data

How the results depend on the processing

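With 1 library per treatment, no difference has a replicate error and no library could be left out. No paired analysis was possible because each treatment has only 1 ChIP library. Of the counts of histone genes with a peak and the subcluster covers, 44 of the values under alternatives stayed within 1.5 times and 16 did not. Peaks with a −log10 q of at least 2 (4211 and 11097 in the lists) left 14 genes with an OTX015 peak, 15 with a combination peak and 8 with both. Subcluster cover was then 5.13, 1.21 and 9.82 kb with OTX015, and 6.01 and 8.18 kb in subclusters 1 and 3 with the combination. A common enrichment kept 1160 of 86207 combination peaks and all OTX015 peaks, and left 0 genes with a combination peak or with both, and 0 kb of combination cover in each subcluster. The fall follows from the combination list having few peaks above that limit. Without flanks, 20 genes had a peak in both lists. With equal peak numbers, 37 genes had a peak in each list and 30 in both. Combination cover of subcluster 1 was then 23.7 kb, and without a margin that of subcluster 2 was 3.35 kb.

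Several differences (combination minus OTX015) changed sign. With a −log10 q of at least 2 they were −1.49 kb at H1-2, 0.371 kb at H2BC12, −0.413 kb at H2BC5 and 3 kb in subcluster 2. A common enrichment left no combination cover at any histone gene or subcluster, so no difference there could be positive. The differences then were −1.49 kb at H1-2, −0.920 kb at H2AC11, −1.48 kb at H2BC11, −1.61 kb at H2BC5, −0.039 kb at H4C13 and −19.0 kb in subcluster 1. With the 5′ window H2BC12 was at 0.462 kb and H2BC5 at −0.108 kb, with 5 kb flanks H4C13 was at −0.100 kb, and with 50 kb margins subclusters 2 and 3 were at 2.45 and 0.876 kb. Apart from the common enrichment, the cause was not tested. Of the 49 genes with cover, 17 changed sign with 5 kb flanks, 16 with a common enrichment, 9 with the stricter q, 8 with the 5′ window, 7 with merged peaks, 4 without flanks, 1 with equal peak numbers and 0 with an overlap of at least 200 bp. Further differences became 0, so their direction was not kept either. They were 28 with the stricter q, 13 without flanks and 12 with a common enrichment. Another 5 became 0 with equal peak numbers, 2 with the 5′ window and 2 with merged peaks.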
